A study of Mus musculus with 2 samples.

Results

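The natural killer lectin receptor genes of mouse chromosome 6 were examined for H3K9me3, trimethylation of lysine 9 of histone H3, a mark of silent chromatin. They were chosen by name: every chromosome 6 gene whose symbol starts with Klra, Klrb, Klrc, Klrd, Klre, Klri, Klrk or Clec2. The rule found 39 of 49603 RefSeq genes in mm10, of which 37 could be placed, and 36 of 37273 GENCODE M1 genes in mm9. By symbol, 32 are in both sets, and 32 members are protein-coding in each build. Klra16 and Klra23 have RefSeq positions before base 3000000. These were not taken as positions on the chromosome itself, so both genes were left out in mm10. In mm9 Klra23 lies among the other Klra genes, at chr6:130241179-130256450.

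The data are peak lists of H3K9me3 ChIP-seq, sequencing of the DNA that an antibody against the mark pulls down, in 1 group of 2 biological replicates. Both are separate biosamples of E14TG2a.4, a male embryonic stem cell line of strain 129/Ola, with the same donor, no treatment and no second condition. Read depth is unknown, because the lists hold no counts. In mm10 the lists held 161565 peaks in replicate 1, 198948 in replicate 2 and 123489 in the authors' replicated list, and in mm9 they held 43006 and 53405 wider regions. With 1 group no test between conditions could be made, so counts are set beside the same counts over all genes, and a difference is read against the spread between the replicates. The replicates are 1 cell line, so this spread is that of separate samples of the same cells. Peak lists do not measure expression and could not check the cell type: promoters with a region in both replicates numbered 0 of 6 among stem cell markers (Pou5f1, Nanog, Sox2, Zfp42, Esrrb and Klf4), 0 of 5 among natural killer cell markers and 1 of 5 among fibroblast markers (Lum). The peak positions are those of the reference genome, which is C57BL/6J, while the cells are 129/Ola. The Ly49 genes are known to differ in number and sequence between these strains, and how far the reference matches the genome of the line was not tested.

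Natural killer cells weigh activating against inhibiting signals before they kill a target, and in the mouse many of their receptors are C-type lectin-like proteins encoded in one gene complex. The Ly49 receptors (Klra genes) read classical MHC class I proteins, the Nkrp1 receptors (Klrb genes) read Clr ligands (Clec2 genes) that lie among them in the genome, and CD94 with its NKG2 partners (Klrd and Klrc genes) reads the nonclassical protein Qa-1. Klrk1, which encodes NKG2D, reads stress-induced ligands. The Klrc, Klrd, Klre, Klri and Klrk genes are called the NKG2 group here. Many of these genes are clonally or variably expressed in natural killer cells, and the Ly49 genes are a standard example of a family that expands and contracts between strains.

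Promoter sequences are shown for 6 members because they carry the contrast that the peak lists draw at gene starts. The first 3 had a replicated peak on the start itself or next to it. The next 3 had none within 1 kb, although Klrb1c has a peak at its other end and Klra4 has a promoter close in sequence to that of Klra17. Each runs 5′ to 3′ over 300 bases, from 250 before the start to 50 from it on, from RefSeq on GRCm38.p6 (mm10), with every CG dinucleotide in capitals. Klrb1b lies at chr6:128826259-128826558 on the minus strand, Clec2g at chr6:128934131-128934430 on the plus strand and Klra17 at chr6:129876623-129876922 on the minus strand. Klrb1c lies at chr6:128788592-128788891, Klrk1 at chr6:129623815-129624114 and Klra4 at chr6:130067222-130067521, all on the minus strand.
Klrb1b: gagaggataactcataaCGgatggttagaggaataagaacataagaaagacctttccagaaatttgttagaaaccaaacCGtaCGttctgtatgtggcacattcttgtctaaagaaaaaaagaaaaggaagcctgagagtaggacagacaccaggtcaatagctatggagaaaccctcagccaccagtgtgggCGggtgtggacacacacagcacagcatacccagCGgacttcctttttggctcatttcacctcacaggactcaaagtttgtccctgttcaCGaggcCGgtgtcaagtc
Clec2g: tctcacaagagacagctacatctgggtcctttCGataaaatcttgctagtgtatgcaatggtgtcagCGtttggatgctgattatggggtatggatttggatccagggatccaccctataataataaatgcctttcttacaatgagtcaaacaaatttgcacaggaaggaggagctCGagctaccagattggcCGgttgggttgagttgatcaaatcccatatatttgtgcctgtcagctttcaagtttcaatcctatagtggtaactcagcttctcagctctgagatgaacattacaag
Klra17: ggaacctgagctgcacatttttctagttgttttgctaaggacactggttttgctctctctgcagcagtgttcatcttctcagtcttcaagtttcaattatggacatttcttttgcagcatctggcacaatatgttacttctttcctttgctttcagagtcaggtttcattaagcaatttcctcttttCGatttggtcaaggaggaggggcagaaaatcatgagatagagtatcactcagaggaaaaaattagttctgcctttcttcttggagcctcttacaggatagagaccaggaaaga
Klrb1c: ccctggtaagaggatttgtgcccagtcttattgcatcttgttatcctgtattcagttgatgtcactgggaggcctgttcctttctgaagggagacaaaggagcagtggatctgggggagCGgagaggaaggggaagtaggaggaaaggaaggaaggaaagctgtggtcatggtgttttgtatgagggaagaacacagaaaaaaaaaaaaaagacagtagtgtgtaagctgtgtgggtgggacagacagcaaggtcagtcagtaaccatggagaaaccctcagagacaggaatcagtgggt
Klrk1: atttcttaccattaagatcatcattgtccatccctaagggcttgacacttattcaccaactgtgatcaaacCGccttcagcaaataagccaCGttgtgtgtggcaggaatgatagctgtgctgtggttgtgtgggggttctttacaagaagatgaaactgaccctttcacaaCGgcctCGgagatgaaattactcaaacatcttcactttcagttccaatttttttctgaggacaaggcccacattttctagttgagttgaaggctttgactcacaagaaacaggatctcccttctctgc
Klra4: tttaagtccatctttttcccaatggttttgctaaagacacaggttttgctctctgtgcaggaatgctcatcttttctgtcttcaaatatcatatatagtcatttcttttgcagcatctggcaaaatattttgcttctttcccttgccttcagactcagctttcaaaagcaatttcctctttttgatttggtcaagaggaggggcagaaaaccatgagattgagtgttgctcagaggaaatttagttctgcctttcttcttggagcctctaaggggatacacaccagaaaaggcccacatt

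Of the 37 placed members, 29 matched the promoter table, with 35 entries in all. Clec2f, Clec2j, Klrd1, Klri2, Klrb1-ps1, Klra11-ps, Klra13-ps and Klra14-ps had no entry. The motif searched was CG, which reads the same on both strands. The sequences above hold 7 CG in Klrb1b, 4 in Clec2g, 1 in Klra17, 1 in Klrb1c, 4 in Klrk1 and 0 in Klra4. Over the 35 member entries the median was 2.00, and 31 entries (88.6%) had at most 5, against a median of 7 over all 32851 RefSeq entries, of which 43.6% had at most 5. Clec2l, which lies apart from the others, had the highest member count, 29. Among the promoters with a replicated peak, Klrb1b reached the median of all RefSeq entries and Clec2g, Clec2i and Klra17 lay below it. Sequence identity between members' promoters had a median of 45.0% within Nkrp1, 44.3% within Clr, 46.3% within the NKG2 group and 47.0% within Ly49. Pairs from different families ranged from 37.0% (Clec2l and Klra6) to 50.7% (Klra17 and Klrc3). The medians lie within that range, so they are not read as likeness within a family. A few pairs were closer: Klrc2 and Klrc3 shared 98.3%, Klra3 and Klra9 84.0%, Klra17 and Klra4 79.3%, and Klrb1a and Klrb1c 65.7%. Of the pair Klra17 and Klra4, the first had a replicated peak on its start in mm10 and the other had none within 1 kb.

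Few members carried the mark at the promoter, and those that did were Clec2g, Clec2j and Klrb1b. In mm9 a promoter was the 1 kb either side of any transcript start, and it counted as marked where bases covered in both replicates, called a shared region, overlapped it. Of 36 members 3 were marked (8.33%), against 6.91% of all genes and 5.54% of protein-coding genes. That share is near the background, so it is no result about the family as a whole. Fold enrichment is the authors' own value for each peak and is used here only to describe and rank peaks. Clec2g, one of the Clr genes, had regions of 5.94 in replicate 1 and 8.56 in replicate 2, a mean of 7.25 ± 1.85 (SD, n = 2). Its first start lay inside a region of 21.4 kb in replicate 1 and 23.4 kb in replicate 2. Clec2j, another Clr gene, which RefSeq lists as a pseudogene, had 3.89 in replicate 1 and 5.58 in replicate 2, a mean of 4.74 ± 1.19 (SD, n = 2). Klrb1b, which encodes an inhibitory Nkrp1 receptor that reads the product of Clec2d, had 3.69 and 5.42, a mean of 4.56 ± 1.22 (SD, n = 2). In all 3 replicate 2 was the higher. Just outside the threshold, Klrb1a had a region of 1.66 at its promoter in replicate 1 only, and Klra17 had one of 1.32 in replicate 2 only. The other 31 members had no region of either replicate within 1 kb of a start.

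In mm10, where peaks are narrower, 4 of 29 members with a RefSeq start had a replicated peak within 1 kb. That is a larger share than the 7.66% of all 27025 genes with a start, but it rests on 4 genes. Among these, Klra17 had a fold of only 2.66 on its start and Clec2i a peak at the edge of the window. For Klrb1b all 2001 bases of the window were covered in the replicated list and in each replicate, at a fold enrichment of 8.79 and 13.1 in the replicates and a mean of 11.0 ± 3.07 (SD, n = 2). Clec2g had 1236 covered bases, and the peak on its start had folds of 5.72 and 10.7, a mean of 8.19 ± 3.49 (SD, n = 2). Klrb1b and Clec2g were thus marked at the start in both builds. Of the 300 bases printed above, the replicated peaks covered 300 in Klrb1b, 123 in Clec2g and 300 in Klra17. Klra17, which encodes Ly49Q, a receptor of plasmacytoid dendritic cells, had 654 covered bases in the window, with 182 in replicate 1 and 609 in replicate 2. The replicated peak on its start, chr6:129876563-129876950, had a fold of 2.66 and overlapped a peak of replicate 2, at 3.61, and none of replicate 1. The strongest peak in the window, chr6:129877523-129878261, lay before the start, with folds of 3.42 in replicate 1 and 5.28 in replicate 2. Clec2i had 121 covered bases at the edge of the window, with folds of 3.12 and 3.60. The last 2 were not marked in both replicates in mm9.

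Gene bodies were read in mm10, and their coverage divided by family. A replicated mm10 peak touched 16 of 37 bodies (43.2%), against 24.6% of all genes and 30.9% of protein-coding genes. At least 10% of the body was covered in 11 of 37 (29.7%), against 7.38% of all genes and 5.36% of protein-coding genes. Summed over members, 9.80% of 616.3 kb was covered, with 6.89% in replicate 1 and 10.7% in replicate 2, against 2.27% over protein-coding genes, with 1.78% and 2.41%. On chromosome 6 the protein-coding genes had 2.22% covered and 7.32% of them reached 10%. Both replicates of the members lay above both replicates of either background. The median member, like the median protein-coding gene, had 0% covered, so the sum rests on a minority of members. Median body lengths were 13.9 kb for members and 17.2 kb for protein-coding genes.

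The Nkrp1 genes had the largest covered share of the 4 families in mm10, above the Clr genes within each replicate. The ranges of the replicates overlapped between these families and their order turned in mm9, so no difference between them is drawn. Over the 6 members 25.0% of the body sequence was covered in the replicated list, with 18.3% in replicate 1 and 25.4% in replicate 2, and 5 of 6 had a peak and at least 10% coverage. Klrb1b had 66.2% of its body covered in the replicated list, 51.1% in replicate 1 and 63.5% in replicate 2. It stood first among all members in the replicated list and replicate 1, and second to Clec2j in replicate 2 and in the mm9 shared regions. Among the 16802 protein-coding genes of 5 kb or more it ranked 30 in the replicated list. Klrb1a had 31.8% covered, with 18.8% and 36.4% in the replicates, and ranked 168. Klrb1 had 21.8%, with 14.1% and 23.9%. Klrb1c encodes NK1.1, the antigen by which natural killer cells of C57BL/6 mice are usually stained, and had 16.7% covered, with 15.6% and 15.9%. Klrb1f had 14.4%, with 11.4% in each replicate. The pseudogene Klrb1-ps1 had 0% in the replicated list, 1.35% in replicate 1 and 1.33% in replicate 2. The ranges of the replicates overlapped between Klrb1a and Klrb1 and between Klrb1 and Klrb1c. Within each replicate Klrb1a lay above Klrb1, whereas Klrb1 and Klrb1c changed order between the replicates. Klrb1b lay above each of these 3 genes in both replicates.

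**Figure D1:**
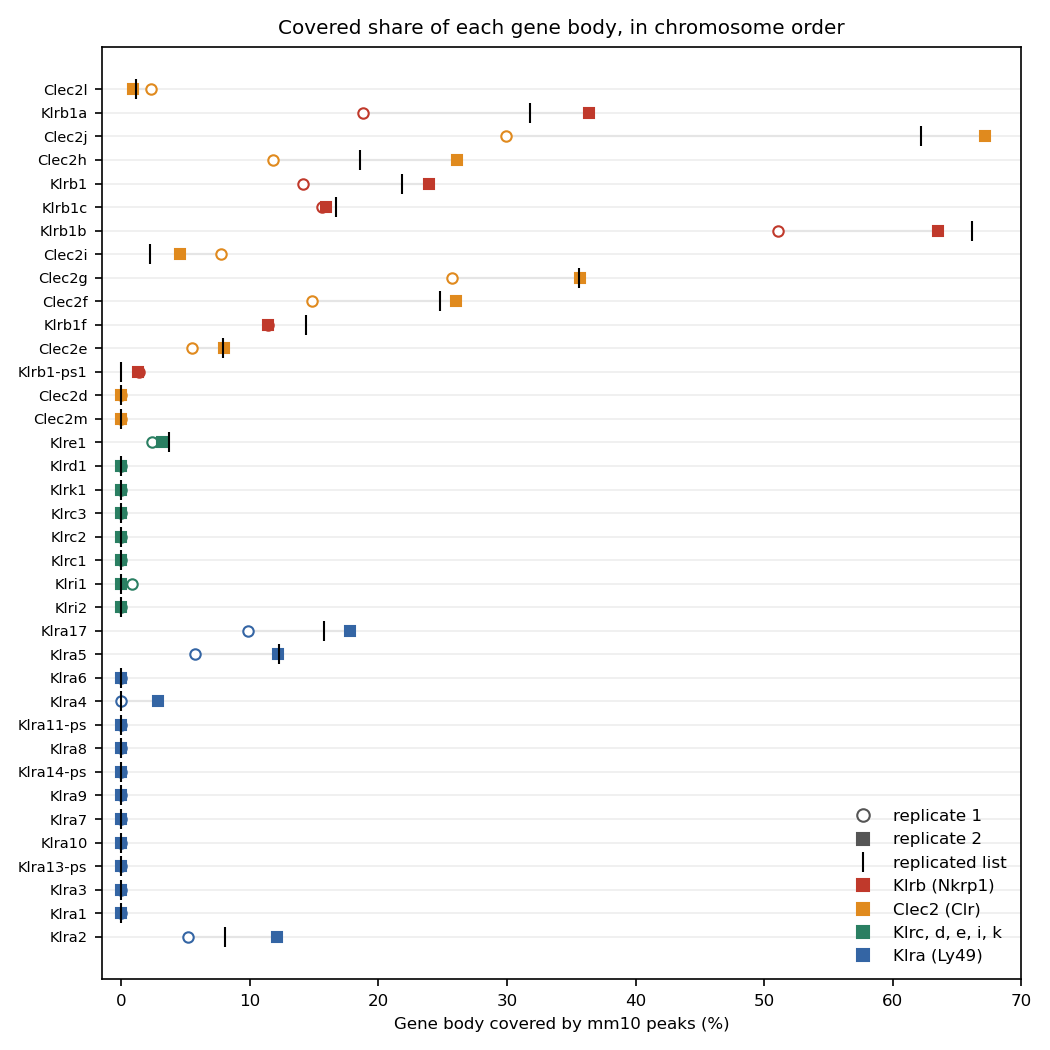
Share of each placed member's body covered by mm10 peaks, in percent, for 37 members from the lowest to the highest position on chromosome 6. Open circles are replicate 1, squares replicate 2 and vertical bars the authors' replicated list, coloured by family; Klrb1b and Clec2j are the 2 members above 60% in the replicated list, and all NKG2 group members lie under 4%.

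The Clr genes were mixed, although they lie among the Nkrp1 genes. Over 9 members 19.7% of the body sequence was covered, with 14.2% in replicate 1 and 20.9% in replicate 2, and 7 of 9 had a peak. Clec2j, whose mm10 body is only 1.92 kb, had 62.2% covered, with 29.9% and 67.2% in the replicates. Clec2g had 35.6%, with 25.7% and 35.7%, and ranked 128 among long protein-coding genes. Clec2f had 24.8%, with 14.8% and 26.0%, and Clec2h had 18.6%, with 11.8% and 26.1%. Below them Clec2e had 7.92%, Clec2i 2.26% and Clec2l 1.16%. Clec2d, which encodes Clr-b, the broadly expressed ligand of the inhibitory receptor from Klrb1b, and Clec2m had 0% in the replicated list and in each replicate. The receptor gene Klrb1b thus stood first in the replicated list, while the 0% of the ligand gene Clec2d was also the value of the median member. The nearest replicated peak to the start of Clec2d lay 7.29 kb away.

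The NKG2 group was almost bare of peaks. Over 8 members 0.804% of the body sequence was covered, with 0.688% in replicate 1 and 0.683% in replicate 2, below the 2.27% of protein-coding genes, and no member reached 10%. Klre1, whose product pairs with those of Klri1 and Klri2, was the only one with a replicated peak, at 3.70% covered, with 2.42% and 3.14% in the replicates. Klri1 had 0% in the replicated list and in replicate 2 and 0.808% in replicate 1. Klrk1 (NKG2D), Klrd1 (CD94), Klrc1 (the inhibitory NKG2A), Klrc2 (the activating NKG2C), Klrc3 and Klri2 had 0% in all 3 lists. In mm9 none of the 8 bodies or promoters had a region of either replicate.

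The Ly49 genes were mostly without peaks, with the marked ones at the edges of the cluster. Over 14 members 4.59% of the body sequence was covered, with 2.80% in replicate 1 and 5.86% in replicate 2, and 3 had a peak. These were Klra17 with 15.8% (9.89% and 17.8% in the replicates), Klra5, which encodes Ly49E, with 12.3% (5.73% and 12.2%), and Klra2, which encodes Ly49B, with 8.09% (5.16% and 12.1%). Klra2 lay just under the 10% threshold and Klra5 just above it, and their replicates overlapped. Klra1 (the inhibitory Ly49A), Klra8 (the activating Ly49H, which recognises a cytomegalovirus protein), Klra3, Klra6, Klra7, Klra9, Klra10 and the 3 pseudogenes had 0% in all 3 lists. Klra4, which encodes the activating receptor Ly49D, had 0% in the replicated list and replicate 1 and 2.89% in replicate 2. The builds differed on it: in mm9, 17.8% of its body was covered in both replicates.

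With the wider mm9 regions, bodies with a shared region numbered 4 of 6 in Nkrp1 (66.7%), 4 of 8 in Clr (50%), 0 of 8 in the NKG2 group and 4 of 14 in Ly49 (28.6%). The covered share of body sequence put Clr first there, at 42.3%, with 43.4% in replicate 1 and 48.6% in replicate 2. Nkrp1 had 36.5%, with 43.1% and 40.0%, Ly49 had 8.37%, with 9.34% and 10.2%, and the NKG2 group had 0%. The order of Nkrp1 and Clr thus turned between builds, while both stood above Ly49 and the NKG2 group in each replicate of either build. The annotated bodies also differ between builds: Clr bodies summed to 149.1 kb in mm9 and 132.8 kb in mm10, and Ly49 bodies to 351.5 kb and 280.0 kb. Clec2g runs over chr6:128884399-128970537 in mm9 and has 50.3 kb in mm10. How far this moved the shares was not tested. In total 12 of 36 members had a shared region in the body, against 20.7% of protein-coding genes. Some single members also had higher covered shares in mm9, at 72.6% for Klrb1a, 58.6% for Clec2h and 40.7% for Klra5. Klrb1f (14.4% in mm10), Klre1 (3.70%), Clec2i (2.26%) and Clec2l (1.16%) went the other way. These 4 had 0% of the mm9 body covered in either replicate.

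**Figure D2:**
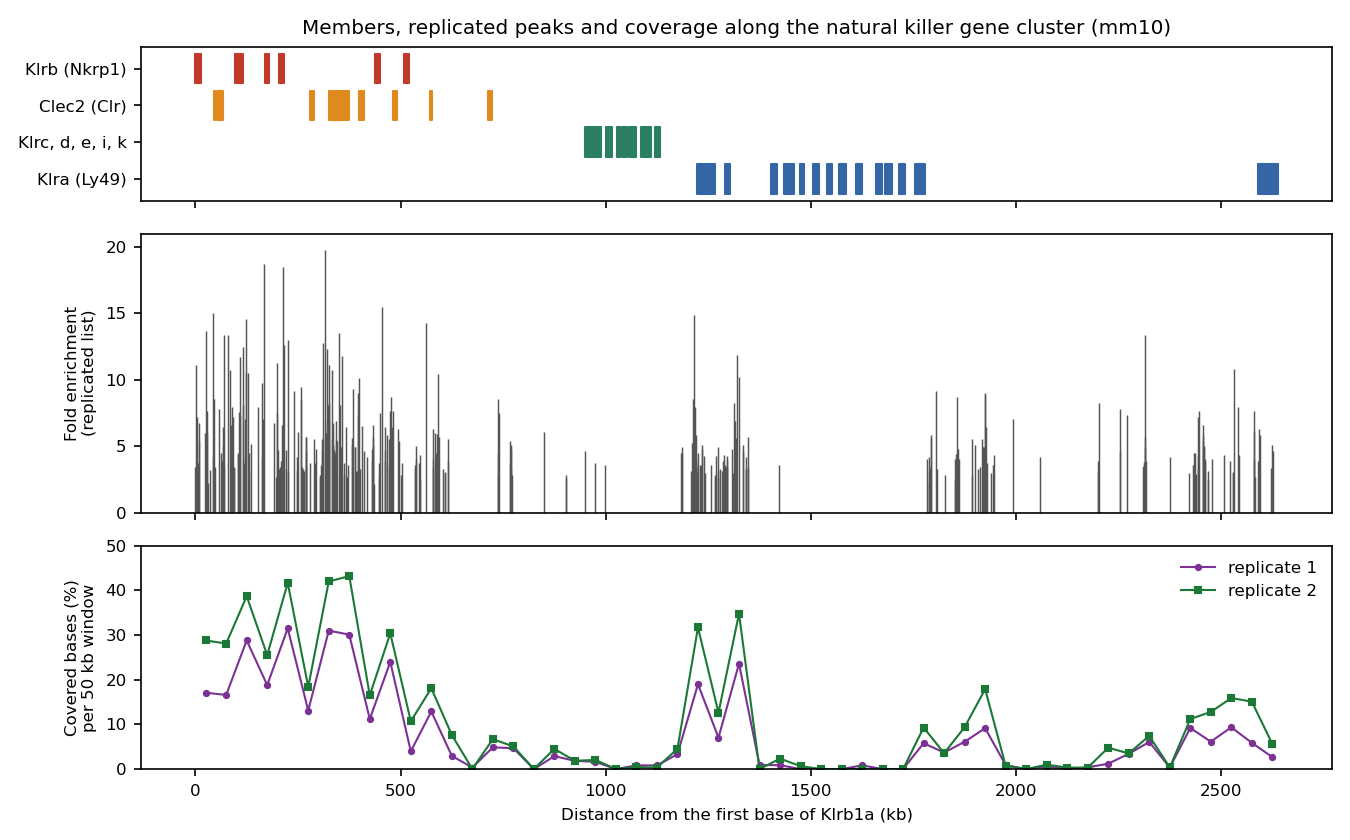
Members by family (top), fold enrichment of each replicated mm10 peak (middle) and percent of bases covered in each 50 kb window in replicate 1 and replicate 2 (bottom), against distance in kb from the first base of Klrb1a. Peaks are dense over the Nkrp1 and Clr genes, almost missing over the NKG2 group and missing from Klra4 to Klra1.

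All placed members but Clec2l lie in one interval of 2638.5 kb, chr6:128609227-131247716 in mm10, from Klrb1a to Klra2. The interval held 357 replicated peaks over 266.6 kb, so that 10.1% of it was covered, with 7.31% in replicate 1 and 10.9% in replicate 2. Coverage was 10.1% inside member bodies and 10.1% between them, so the peaks were as dense between members as over them. Only 90 of the 357 peaks (25.2%) touched a member. Of its 53 windows of 50 kb, 10 were at least 20% covered (18.9%), against 86 of 2932 on chromosome 6 (2.93%), and 13 held no peak (24.5%), against 31.9%. The highest window reached 42.4%, and the highest of the chromosome 66.6%. The interval thus holds both dense and empty windows.

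The dense part was the stretch with the Nkrp1 and Clr genes. From Klrb1a to Clec2m, over 722.6 kb and 14 members, 194 peaks covered 23% of the sequence, with 16.8% in replicate 1 and 24.2% in replicate 2. Here too bodies (23.6%) and the sequence between them (22.8%) were alike. The NKG2 stretch from Klre1 to Klri2, over 181.1 kb, held 3 peaks and 0.756% coverage, with 0.790% and 0.782% in the replicates. The Ly49 stretch from Klra17 to Klra1, over 555.7 kb, held 42 peaks and 5.23% coverage, with 3.69% and 5.81%, of which bodies had 3.86% and the sequence between them 6.20%. The order of the 3 stretches was the same in both replicates, and each pair differed by more than the replicates did. The mm9 stretches have other ends. Shared regions covered 47.9% from Klrb1a to Clec2d (577.3 kb, without Clec2m), 0% from Klre1 to Klri2 (162.6 kb) and 8.64% from Klra17 to Klra1 (555.7 kb).

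Some of the longest stretches of chromosome 6 without a replicated peak lie over these genes. One of 361.0 kb, chr6:130032488-130393486, holds 10 Ly49 members from Klra4 to Klra1, and 11 of the 7508 gaps between peaks of the chromosome are at least as long, with a median gap of 2.73 kb. The replicates' own lists had 4 peaks in it in replicate 1 and 7 in replicate 2, so it was sparse and not empty there. A second gap, of 184.9 kb at chr6:129608860-129793743, holds Klrk1, Klrc3, Klrc2, Klrc1, Klri1 and Klri2, with 5 and 4 peaks of the replicates' own lists, and 82 gaps are at least as long. In mm9 the matching gaps between shared regions were 251.8 kb over 7 Ly49 genes and 329.4 kb over all 8 NKG2 genes, against a median of 25.4 kb. In mm9 shared regions lay on Klra4 and between Klra8 and Klra14, inside what is a gap in the mm10 list.

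**Figure D3:**
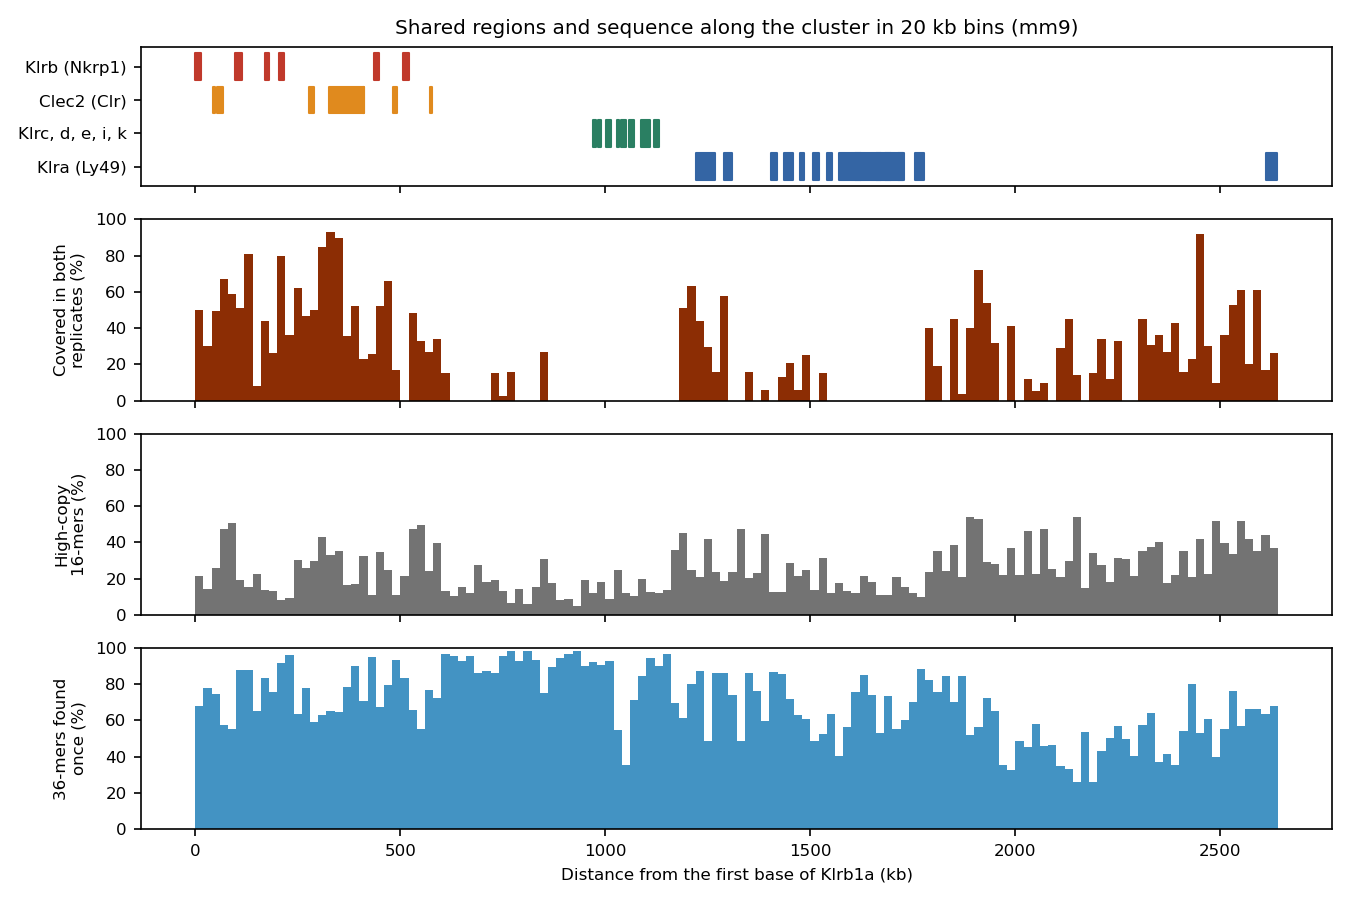
Members by family, and in 20 kb bins of mm9 the percent of bases covered in both replicates, the percent starting a 16-mer present at least 50 times in the genome and the percent starting a 36-mer found once, against distance in kb from the first base of Klrb1a. The NKG2 bins hold no shared region, and their share of single-copy 36-mers ranges from among the highest to among the lowest in the interval.

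Closely related copies are hard to tell apart with short reads, so the share of each member's body that is unique in mm9 was measured as the percent of bases that start a 36-mer found once in the genome. The sources used here do not state how reads with several matches were placed. The medians were 83.8% in Nkrp1, 80.2% in Clr, 88.7% in the NKG2 group and 68.2% in Ly49. Klrc2 (37.2%), Klra10 (42.5%), Klrc1 (43.1%) and Klra8 (48.2%) were the lowest, and all 4 had no shared region. Klre1 (98.0%), Klrd1 (93.1%), Klra1 (89.0%) and Klrk1 (88.9%) had no shared region either, and most of their sequence is unique. Members with a shared region had a median of 77.8% unique (62.7% to 93.3%, n = 12) and members with none 78.2% (37.2% to 98.0%, n = 24). Across the 36 members, which share both libraries and in part their sequence, Spearman's rho between the unique share and the covered share was 0.0144, as a description. Counted by bases, shared regions of the cluster were 60.4% unique and the rest 72.2%. In the Nkrp1 and Clr stretch the values were 68.7% inside and 80.4% outside, and in the Ly49 stretch 68.7% and 68.3%. Over chromosome 6 shared regions were 50.5% unique, against 86.2% for the whole chromosome. For the members of low unique share, a body without peaks cannot be told apart from one whose reads could not be placed.

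Sequence present many times in the genome was commoner in the covered members. The measure was the percent of bases that start a 16-mer present at least 50 times in mm9. It had a median of 23.6% in the 12 members with a shared region and 8.18% in the 24 with none, and rho with the covered share was 0.535 over the 36, again as a description. Within the cluster shared regions held 39.9% such bases and the rest 20.6%, against 52.6% inside the shared regions of all chromosome 6 and 18.4% over the whole chromosome. In the Nkrp1 and Clr stretch the values were 32.6% inside shared regions and 19.5% outside, and in the Ly49 stretch 32.1% and 19.8%. Shared regions of the cluster also held more CG dinucleotides, 8.47 per kb against 5.15 outside. The shared regions of all chromosome 6 held 10.4 and the whole chromosome 7.97, near the value inside the cluster's regions. In the Nkrp1 and Clr stretch the counts were 8.73 inside and 7.35 outside, and in the Ly49 stretch 6.25 and 4.73. Single regions differed widely in high-copy sequence. The 21.4 kb region at the start of Clec2g had 41.0%. That over Klrb1b, of 12.6 kb, had 8.87%, below the 18.4% of the chromosome. Klrb1b, with 76.2% of its mm9 body covered, thus had little high-copy sequence under its region.

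Summed over members, the covered share was larger for introns than for exons or promoter windows. In mm9 18.1% of 669.3 kb of member bodies was covered in both replicates, with 18.5% of introns, 13.5% of exons and 7.72% of promoter windows. Clec2g alone gave 49.0 kb of the 121.0 kb covered, almost all of it outside exons. The sums thus lean on Clec2g, and the shares were not computed without it or in each replicate. Promoter windows also reach outside the bodies, so no general preference for introns is drawn. Clec2e and Klrb1c differed from the other 10 members with a shared region, whose covered bases were at most 19.5% exonic. In Clec2e the covered 0.751 kb was wholly exonic, and in Klrb1c the covered 3.10 kb began at the 3′ end of the gene, touched 1 of 7 exons and was 62.7% exonic. In mm10 the single replicated peak of Klrb1c, chr6:128776592-128780183, began beyond the 3′ end and ended 8.46 kb from the start. In Klrb1b the strongest peak lay between 1.71 and 3.76 kb after the start, and a separate peak covered the start itself.

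The strongest peaks of the interval lay in the Nkrp1 and Clr stretch. The peak in Klrb1b at chr6:128822545-128824594 was the highest of the interval in each replicate, with a fold enrichment of 14.6 in replicate 1 and 21.1 in replicate 2, a mean of 17.8 ± 4.61 (SD, n = 2), and 18.5 in the replicated list. The peak at Klrb1c had 13.8 and 13.6, a mean of 13.7 ± 0.151 (SD, n = 2), and 18.7 in the replicated list. A peak between Clec2i and Clec2g, chr6:128924796-128926619, was the highest of the replicated list at 19.8, with 12.0 and 18.6 in the replicates. In Clec2g the strongest had 13.5, with 9.10 and 15.3. Of the 278 peaks of the interval that a peak of each replicate overlapped, 228 (82.0%) had the higher fold in replicate 2, so levels are compared within a replicate only. The median peak of the interval had a fold of 4.50 and that over members 4.58, against 4.20 over 123309 peaks of chromosomes 1 to 19, X and Y, and 413 peaks elsewhere were above the highest of the interval.

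**Figure D4:**
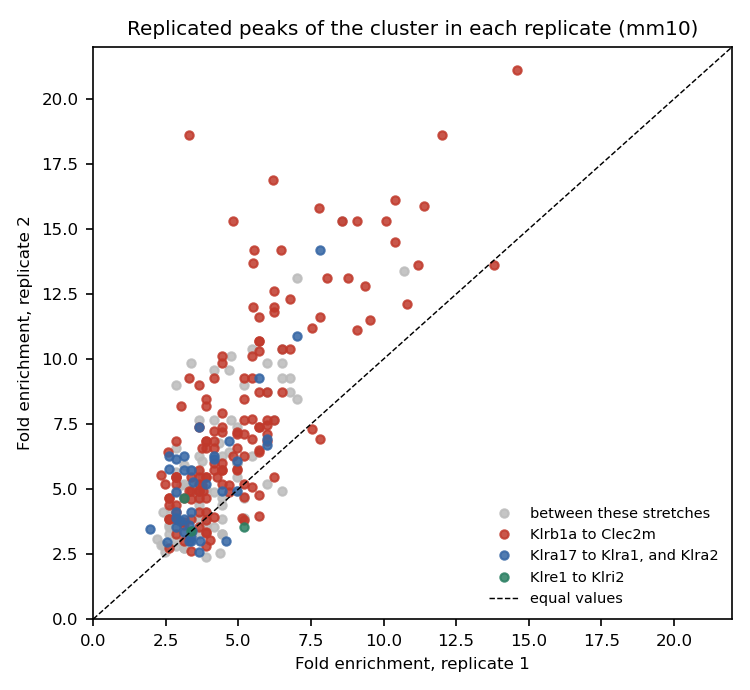
Fold enrichment of each replicated mm10 peak of the interval in replicate 1 (horizontal) and replicate 2 (vertical), for the 278 peaks overlapped in both, coloured by stretch. The dashed line marks equal values; 228 points lie above it, and the highest points belong to the stretch from Klrb1a to Clec2m.

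Other families of chromosome 6 that are also clustered and variable had fewer covered bodies. None of 33 bitter taste receptor bodies and 6 of 52 type 1 vomeronasal receptor bodies had a replicated peak, against the 16 of 37 members, and 0 and 2 of them were at least 10% covered, against 11. Their median lengths were 0.936 kb and 0.930 kb, against 13.9 kb, so a member has far more sequence in which a peak can fall. The covered share, which does not grow with length in this way, was 9.80% for the members, with 6.89% and 10.7% in the replicates. It was 0% for the taste receptors (0.560% and 0.701%) and 3.12% for the vomeronasal receptors (1.59% and 3.36%). Member bodies were mostly intron, 609.0 of 669.3 kb in mm9, and the intron share of the taste and vomeronasal receptors was not measured. At promoters, windows of equal width, 3 of 36 members were marked (8.33%), against 1 of 33 taste receptors (3.03%) and 4 of 51 vomeronasal receptors (7.84%). Promoters therefore did not separate the members from the vomeronasal receptors.

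Genes that work with these receptors were read from lists of their ligands, adaptors and neighbours. Their counts are read against the 30.9% of protein-coding bodies with a peak, the 5.36% at least 10% covered and the 2.27% of sequence covered. Of 11 other C-type lectin genes of chromosome 6, 4 had a peak in the body (36.4%) and 1 at least 10% coverage (9.09%), with 3.35% covered in all and a median of 0%, near the background. That gene was Klrg1, an inhibitory receptor for cadherins, with 15.7% covered, while Klrg2 had 7.10%, and both lie outside the interval. Clec12b, inside it, had 5.49%. Clec12a had the only marked promoter of 10, at 4.28 and 5.32 in the replicates. Cd69, Clec1a, Clec1b, Clec7a, Clec9a and Olr1, which lie between Clec2d and the NKG2 genes, had 0% in the replicated list, as did Klrh1 between the NKG2 and Ly49 genes. Of 9 ligand genes 3 had a peak (33.3%) and 2 at least 10% coverage (22.2%), with 7.04% covered in all and a median of 0%. H60c, a ligand of NKG2D, had 34.6% of its body covered and a marked promoter at 5.71 and 6.19, and Ulbp1, a further ligand of NKG2D, had 11.3%. The MHC class I genes H2-K1, H2-D1 and H2-T23 had 0%. Of 8 adaptor and signalling genes 5 had a peak (62.5%) and 1 at least 10% coverage (12.5%), with 1.74% covered in all, below the 2.27% of protein-coding genes, and a median of 1.65%. Hcst, which encodes the NKG2D adaptor DAP10, had 25.9%, with 20.2% and 18.1% in the replicates, and its neighbour Tyrobp, which encodes DAP12, had 7.92%. Neither had a marked promoter. Of 9 other natural killer cell genes 4 had a peak (44.4%) and 1 at least 10% coverage (11.1%), with 2.72% covered in all, near the background, and a median of 0%. That gene was Gzma, which encodes granzyme A, at 13.4%, and the receptor gene Cd160 had 7.52%.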

How the data were processed

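H3K9me3 ChIP-seq peak lists of 2 replicates were used. The members, lists and thresholds were chosen with earlier results of these data known. Each peak carries a fold enrichment deposited by the authors, which is a linear ratio to a background that the labels and files do not name. The mm10 lists are of narrowPeak type, with −log10 p and −log10 q deposited by the authors, and the mm9 lists are of broadPeak type, with a deposited linear p-value and q-value and boundaries in steps of 200 bp. No source used here names the peak caller or the aligner. The replicated mm10 list combines the per-sample lists with the pooled one, per the deposited file lists.

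Promoters and sequence were read on mm9 with GENCODE M1, and bodies on mm10 with RefSeq GRCm38.p6 positions, with an overlap of at least 1 bp and no conversion between builds. Long genes had at least 5 kb. The genes named are all those with a marked promoter, the 6 with the most covered body, and 12 fixed members whatever their values; the other members are named to account for each of them. Related genes are named where a promoter was marked or at least 5% of the body was covered, and further ones after their values were seen. Counting and overlap were checked on simulated peaks. Python 3.11.15, numpy 2.4.6, scipy 1.17.1 and edlib 1.3.9.post1 (promoter identity) were used.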

Additional observations from a re-analysis of the deposited data

How the results depend on the processing

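The number of marked member promoters, 3 in mm9, was 5 with promoters of 2.5 kb either side, 9 with 5 kb and 1 with a fold enrichment of at least 4, and it was 4 in each replicate alone. The covered share of member bodies, 9.80%, was 6.89% to 10.7% in the lists of single replicates and 18.1% in mm9. For the interval, 10.1% became 7.31% to 10.9% in single replicates and 23.1% in mm9. The cause of these shifts was not tested. The mean promoter fold of Clec2g, 7.25, was 5.40 when regions were weighted by overlap, and single replicates gave 5.94 to 8.56 for Clec2g, 3.89 to 5.58 for Clec2j and 3.69 to 5.42 for Klrb1b. The count of bodies with a peak, 16, was 12 to 18 over all alternatives run. For single members, 18 had 0% in every mm10 list and could not move. Of 114 recomputed body shares of the other 19, 80 moved by no more than the replicate SD and 34 by more. The 80 include the 19 shares from peaks with a −log10 q of at least 2. The lowest −log10 q of a replicated peak in the interval was 2.21, and this setting left every share unchanged, so it tested nothing. Further settings were added after the data were seen: mm10 RefSeq starts, which gave 4 marked promoters, and the single replicates for promoter folds. No paired analysis was possible because there is 1 group and no test. With no read counts, depth is unknown and a body at 0% says only that no peak was called there.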
